A study of Homo sapiens with 14 samples.

Results

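The OAS family was examined in human cancer cells in which the RNA-editing enzyme ADAR1, product of the gene ADAR, had been knocked down, or in which NOP14 had been overexpressed. Its 4 genes, OAS1, OAS2, OAS3 and OASL, were taken by symbol from a table of 62699 genes. The data were 14 bulk poly(A) RNA sequencing libraries. MDA-MB-231 and BT-549, both triple-negative breast cancer lines, NCI-H1395, a lung adenocarcinoma line, and AGS, a gastric cancer line, each gave 2 ADAR siRNA libraries, named 1 and 2 here after the labels' rep1 and rep2, and 1 control siRNA library. A further MDA-MB-231 library had NOP14 overexpressed, and 1 more, labelled PCDH, was its control. The labels state neither the siRNA sequences, nor the time after transfection, nor whether libraries came from separate cultures, so p-values measure only the spread between these libraries, which may be technical.

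OAS1, OAS2 and OAS3 are enzymes that bind double-stranded RNA and then join ATP into short linked oligoadenylates. These activate RNase L, a latent ribonuclease that cuts viral and cellular RNA and can lead to cell death. OASL is a relative that has lost this enzyme activity, carries ubiquitin-like repeats and enhances signalling by the RNA sensor RIG-I. All of them are interferon-stimulated genes, and ADAR1 edits adenosines in cellular double-stranded RNA, which makes it a poorer trigger for such sensors.

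The 3 enzyme genes lie side by side on the forward strand of chromosome 12 in hg38. OAS1 (ENSG00000089127.15) spans 112905856 to 112933219, OAS3 (ENSG00000111331.14) spans 112938051 to 112976460, and OAS2 (ENSG00000111335.14) spans 112978395 to 113011723. OASL (ENSG00000135114.14) lies apart on the reverse strand of chromosome 12, from 121017763 to 121039246. Interferon acts on such genes through factors of the IRF and STAT families, so the 250 bases before the RefSeq transcription start (GRCh38.p14, forward strand) are shown for OAS1 (chr12:112906712-112906961) and OAS3 (chr12:112938224-112938473), the members matched in the promoter table. Both windows lie inside the gene spans given above, which begin upstream of these RefSeq starts. Capitals mark the letters AANNGAAA, the core that IRF factors recognise.

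OAS1: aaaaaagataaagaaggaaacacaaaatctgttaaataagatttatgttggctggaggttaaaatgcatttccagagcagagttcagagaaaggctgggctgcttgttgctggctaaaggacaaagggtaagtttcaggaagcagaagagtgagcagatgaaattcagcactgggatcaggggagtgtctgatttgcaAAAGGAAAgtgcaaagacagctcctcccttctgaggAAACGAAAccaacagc

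OAS3: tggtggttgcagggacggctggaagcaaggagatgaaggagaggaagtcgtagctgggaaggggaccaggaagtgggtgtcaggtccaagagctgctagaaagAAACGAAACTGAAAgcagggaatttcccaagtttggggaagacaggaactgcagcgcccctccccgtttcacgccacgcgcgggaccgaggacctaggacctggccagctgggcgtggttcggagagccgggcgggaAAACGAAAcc

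Both strands were searched, and every match lay on the forward strand. The OAS1 window held AAAGGAAA at positions -52 to -45 and AAACGAAA at -16 to -9, counted back from the start. The OAS3 window held AAACGAAA and the overlapping AACTGAAA between -147 and -134, and AAACGAAA again at -10 to -3. AANNGAAA occurred in 20.3% of 35116 RefSeq promoter windows of this length, and in 29 of the 32 windows found for a list of other interferon-stimulated genes. The longer GAAANNGAAA, which contains AANNGAAA, occurred in 3.02% of all windows and in 24 of those 32. It was found in OAS3 as GAAACTGAAA at -143 to -134 and as GAAAACGAAA at -12 to -3, and not in the OAS1 window. The STAT motif TTCNNNGAA occurred in 6.57% of all windows and in 9 of those 32. It was found in OAS1 as TTCAGAGAA at -168 to -160, and not in the OAS3 window.

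Library totals ran between 13338338 and 27828376 counts. ADAR, the targeted gene, was down to 32.3% and 33.8% of its control level in MDA-MB-231, and to between 10.6% and 24.0% in the 6 ADAR siRNA libraries of the other lines. NOP14 stood 6.61-fold higher in the NOP14 library than in the PCDH library. Of the markers of the labelled tissues, the lung genes NKX2-1, NAPSA and SFTPB summed to at most 1.32 CPM (read counts brought to a shared library size) in NCI-H1395 and to as much as 2.24 CPM in AGS, so defining lung markers were near 0 in the lung line. Of the gastric and intestinal markers, CDX2 was at between 49.5 and 86.9 CPM in AGS and had at most 3 counts elsewhere. GATA6 was at between 149 and 173 CPM in AGS and at most at 68.0 CPM elsewhere. CDX1, however, was at 0 in AGS. In the control siRNA libraries TFF1 was at 2.34 CPM in AGS and 2.78 CPM in MDA-MB-231, and MUC5AC at 0.117 CPM in AGS and 2.09 CPM in MDA-MB-231. Immune cell markers summed to between 0.747 and 9.65 CPM in all libraries. ADAR siRNA library 2 of NCI-H1395 stood apart from the others in the OAS genes, and values without it are given beside the results it moves.

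In control siRNA libraries the family differed widely between the lines, with MDA-MB-231 the lowest for each of the 4 genes. Levels are CPM after TMM scaling, with 1 control siRNA library per line. OAS1 stood at 3.69 CPM in MDA-MB-231, 97.6 CPM in BT-549, 33.0 CPM in NCI-H1395 and 239 CPM in AGS, a 64.9-fold span. OAS3 had the same order, at 58.5 CPM in MDA-MB-231, 912 CPM in BT-549, 294 CPM in NCI-H1395 and 1164 CPM in AGS, a 19.9-fold span. OAS2 was instead highest in BT-549, at 33.2 CPM in MDA-MB-231, 364 CPM in BT-549, 65.0 CPM in NCI-H1395 and 176 CPM in AGS, a 10.97-fold span. OASL had the smallest span, 5.54-fold, and was close between both breast lines, at 27.3 CPM in MDA-MB-231, 31.6 CPM in BT-549, 94.1 CPM in NCI-H1395 and 151 CPM in AGS. In the PCDH library, also MDA-MB-231 without ADAR siRNA, OASL was at 40.4 CPM, above BT-549, and OAS1 at 6.75 CPM, so the order of OASL between the breast lines and the size of the spans depended on which MDA-MB-231 library was used.

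The spread for these contrasts came from the paired ADAR siRNA libraries, so the lone controls were assumed to vary like them. MDA-MB-231 was below AGS for OAS1 (log2 fold change -6.02 ± 1.02 (SE), edgeR adjusted p = 0.00575), for OAS3 (-4.32 ± 1.16, edgeR adjusted p = 0.0496) and for OASL (-2.47 ± 0.57, edgeR adjusted p = 0.00671), where 29.7% of 23959 genes were called. It was below BT-549 for OAS1 (-4.72 ± 0.97, edgeR adjusted p = 0.0148) and OAS2 (-3.45 ± 0.95, edgeR adjusted p = 0.0472), where 25.8% of genes were called. OASL was also lower in MDA-MB-231 than in NCI-H1395 (-1.78 ± 0.55, edgeR adjusted p = 0.0392; 23.3% of genes called) and in BT-549 than in AGS (-2.26 ± 0.56, edgeR adjusted p = 0.0104; 28.3% called). No member was called between BT-549 and NCI-H1395 (19.8% of genes called; edgeR unadjusted p was under 0.05 for OAS2 and OASL, and DESeq2 called OAS1, OAS2 and OASL) or between NCI-H1395 and AGS (26.7% called; edgeR unadjusted p was under 0.05 for OAS1, and DESeq2 called OAS1 and OAS2). For OAS3 in particular, the neighbours BT-549 and AGS did not differ beyond their spread (-0.35 ± 1.01, edgeR adjusted p = 0.886). These errors were set largely by NCI-H1395, whose 2 ADAR siRNA libraries differed far more than those of the other lines. With its library 2 left out, more of the members' contrasts passed the threshold, but so did more genes of any kind in each contrast. That library was picked because it set these errors, and 1 library then stood for its group. The log2 fold changes moved little, with OAS1 at -6.04 and OAS3 at -4.34 in MDA-MB-231 against AGS. Among 36 other interferon-stimulated genes, 16 were called lower and 1 higher in MDA-MB-231 than in BT-549, 10 lower and 5 higher than in NCI-H1395, and 15 lower and 5 higher than in AGS.

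**Figure D1:**
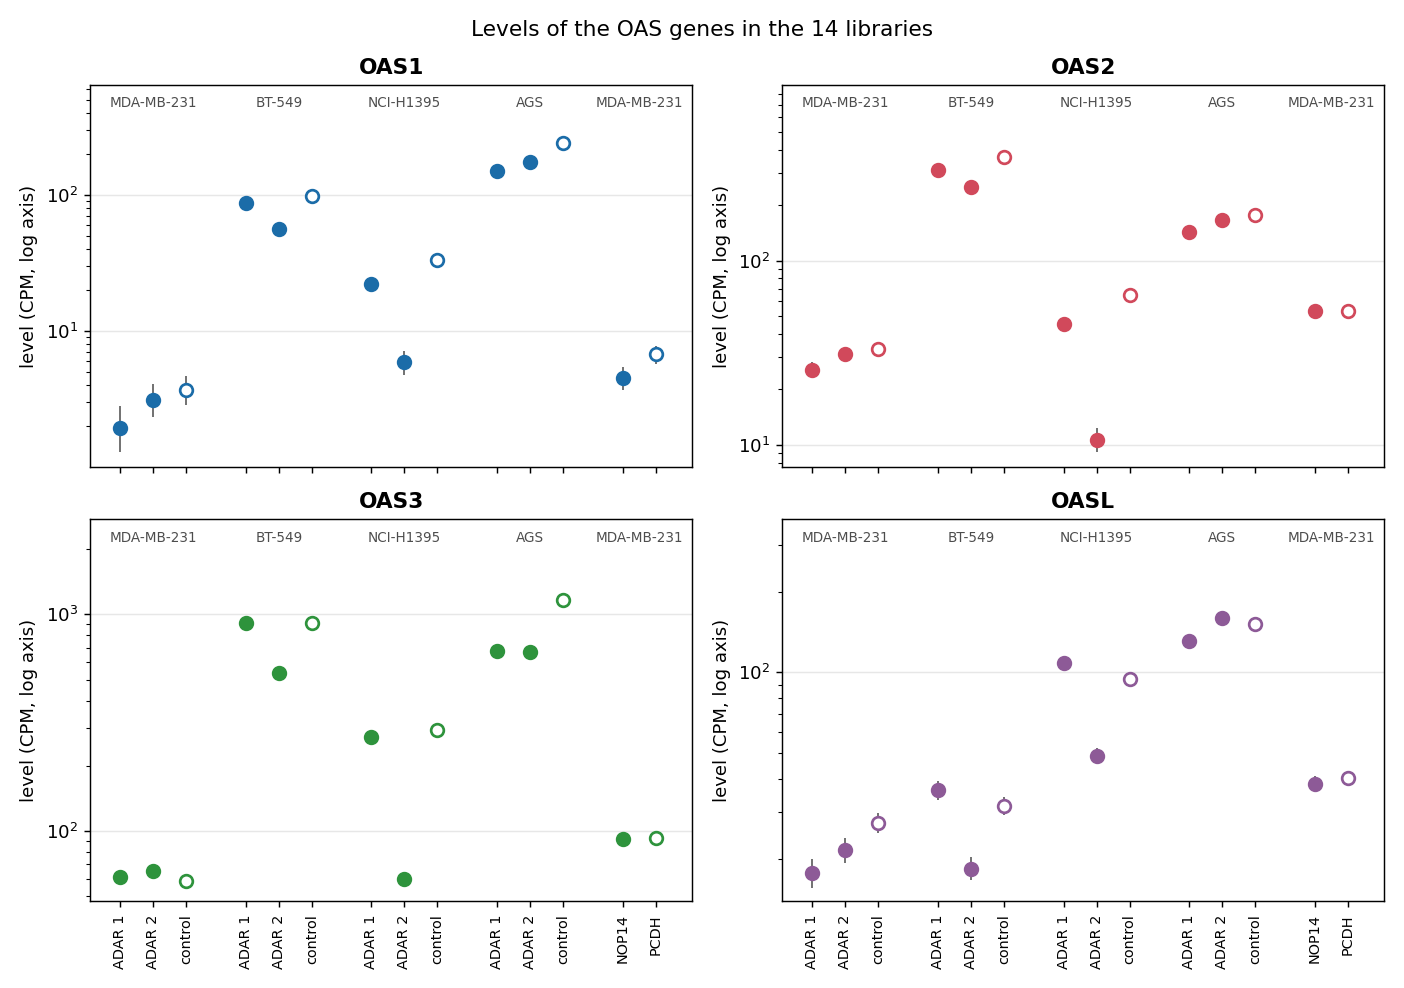
Level of each OAS gene in every library, in CPM on a log axis. Filled points are ADAR siRNA 1, ADAR siRNA 2 and NOP14 libraries, open points are control siRNA and PCDH libraries, and bars are counting intervals of 95%. The point of NCI-H1395 ADAR siRNA 2 lies far below the other NCI-H1395 points for OAS1, OAS2 and OAS3.

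Per length of exon, the make-up of the family also differed between lines. The length was the summed exon length of the gene, 13021 bases for OAS1, 11233 for OAS2, 18045 for OAS3 and 6319 for OASL. It need not be that of the transcripts present, and the order within a line depends on it. By CPM, OASL in MDA-MB-231 control cells (27.3) was below OAS3 (58.5) and OAS2 (33.2). In BT-549 control cells OAS3 made up 53.0% of the summed CPM per kilobase, OAS2 33.9%, OAS1 7.86% and OASL 5.24%. In AGS control cells the largest share was again OAS3, at 52.6%, with OASL second at 19.6%. In NCI-H1395 control cells OAS3 (41.2%) and OASL (37.7%) were near each other, and in MDA-MB-231 control cells OASL led at 40.0%. OAS1 thus held the smallest share in MDA-MB-231 and NCI-H1395 controls, at 2.62% and 6.43%, and in AGS controls it reached 15.0%. The 2 breast lines therefore differed in OASL against the enzyme genes by share, although their OASL levels were alike: 4.325 CPM per kilobase in MDA-MB-231 and 4.998 in BT-549.

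After ADAR siRNA, OAS1 and OAS2 were lower than the line's control in 8 of 8 libraries, and so were 3.24% of 21944 genes tested. OAS3 and OASL were each lower in 5 of 8 libraries, and 34.5% of genes were lower in 5 or more. Both ADAR siRNA libraries of a line were set against the same control library, so these 8 comparisons are not independent. In bulk libraries, fewer expressing cells and less RNA per cell cannot be told apart. No member passed the threshold over the 4 lines with edgeR, where 4 of 21944 genes did (0.0182%), although OAS1, OAS2 and OAS3 had an unadjusted p under 0.05 and OAS1 passed with DESeq2. With no count filter edgeR called OAS1 (-0.60, adjusted p = 0.00444) and 394 genes in all.

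OAS1, the smallest of the enzymes, stood in MDA-MB-231 at 1.95 and 3.15 CPM with ADAR siRNA 1 and 2, against 3.69 CPM with control siRNA. In BT-549 it was at 87.3 and 56.3 CPM with ADAR siRNA 1 and 2, against 97.6 CPM with control siRNA. In NCI-H1395 it was at 22.2 and 5.91 CPM with ADAR siRNA 1 and 2, against 33.0 CPM with control siRNA. Every ADAR siRNA library was thus below its control, and library 2 of NCI-H1395 was the farthest below. In AGS it was at 149 and 174 CPM with ADAR siRNA 1 and 2, against 239 CPM with control siRNA. As a share of the control, OAS1 ranged between 17.9% in NCI-H1395 library 2 and 89.4% in BT-549 library 1. The counting interval of the ratio included 1 in 1 library, MDA-MB-231 library 2 (0.584 to 1.24), where OAS1 had 52 counts.

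Over the 4 lines, with both ADAR siRNA libraries of a line summed, the log2 fold change of OAS1 was -0.66 ± 0.13 (SE, 4 lines; edgeR adjusted p = 0.0996). DESeq2 gave -0.69 ± 0.16 (adjusted p = 0.00309). ADAR itself, at -2.50 ± 0.29, had the same edgeR adjusted p of 0.0996 in this fit, which has 3 residual degrees of freedom. Without NCI-H1395 library 2, OAS1 was at -0.52 ± 0.12 (edgeR adjusted p = 0.266), and without the line NCI-H1395 at -0.50 ± 0.15 (edgeR adjusted p = 0.445).

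OAS2, the enzyme of intermediate size, was at 25.6 and 31.1 CPM with ADAR siRNA 1 and 2 in MDA-MB-231, against 33.2 CPM with control siRNA. In BT-549 the levels were 311 and 251 CPM with ADAR siRNA 1 and 2, against 364 CPM with control siRNA. In NCI-H1395 they were 45.1 and 10.6 CPM with ADAR siRNA 1 and 2, against 65.0 CPM with control siRNA. Here too each ADAR siRNA library was below its control, but in MDA-MB-231 library 2 the ratio was 0.937 with a counting interval of 0.832 to 1.05. In AGS the levels were 143 and 167 CPM with ADAR siRNA 1 and 2, against 176 CPM with control siRNA. Outside NCI-H1395 library 2, at 16.4% of its control, OAS2 kept between 69.0% and 94.7% of the control level. Over the 4 lines its log2 fold change was -0.45 ± 0.14 (edgeR adjusted p = 0.252), -0.32 ± 0.11 (edgeR adjusted p = 0.389) without NCI-H1395 library 2, and -0.24 ± 0.13 (edgeR adjusted p = 0.72) without the line NCI-H1395.

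OAS3, the largest enzyme of the family, lay on different sides of its control in different lines. In MDA-MB-231 it was at 61.2 and 65.1 CPM with ADAR siRNA 1 and 2, against 58.5 CPM with control siRNA. In AGS it was at 678 and 668 CPM with ADAR siRNA 1 and 2, against 1164 CPM with control siRNA. The AGS pair was close together, at 58.3% and 57.4% of the control, and 5.52% of 21944 genes were likewise lower by at least 1.5-fold in both AGS libraries. In BT-549 it was at 913 and 534 CPM with ADAR siRNA 1 and 2, against 912 CPM with control siRNA. In NCI-H1395 it was at 272 and 59.9 CPM with ADAR siRNA 1 and 2, against 294 CPM with control siRNA. In these 2 lines library 1 was thus near the control and library 2 was below it, at 58.6% in BT-549 and 20.4% in NCI-H1395. Over the 4 lines OAS3 was at -0.42 ± 0.14 (edgeR adjusted p = 0.269), and at -0.28 ± 0.14 (edgeR adjusted p = 0.542) without NCI-H1395 library 2.

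OASL, the member without enzyme activity, was at 17.7 and 21.6 CPM with ADAR siRNA 1 and 2 in MDA-MB-231, against 27.3 CPM with control siRNA. In BT-549 it was at 36.2 and 18.4 CPM with ADAR siRNA 1 and 2, against 31.6 CPM with control siRNA. In NCI-H1395 it was at 108 and 48.7 CPM with ADAR siRNA 1 and 2, against 94.1 CPM with control siRNA. Its libraries thus lay on both sides of the control in these last 2 lines. In AGS it was at 131 and 160 CPM with ADAR siRNA 1 and 2, against 151 CPM with control siRNA, again on both sides. Over the 4 lines OASL was at -0.22 ± 0.11 (edgeR adjusted p = 0.495), and at -0.13 ± 0.13 (edgeR adjusted p = 0.8) without NCI-H1395 library 2.

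**Figure D2:**
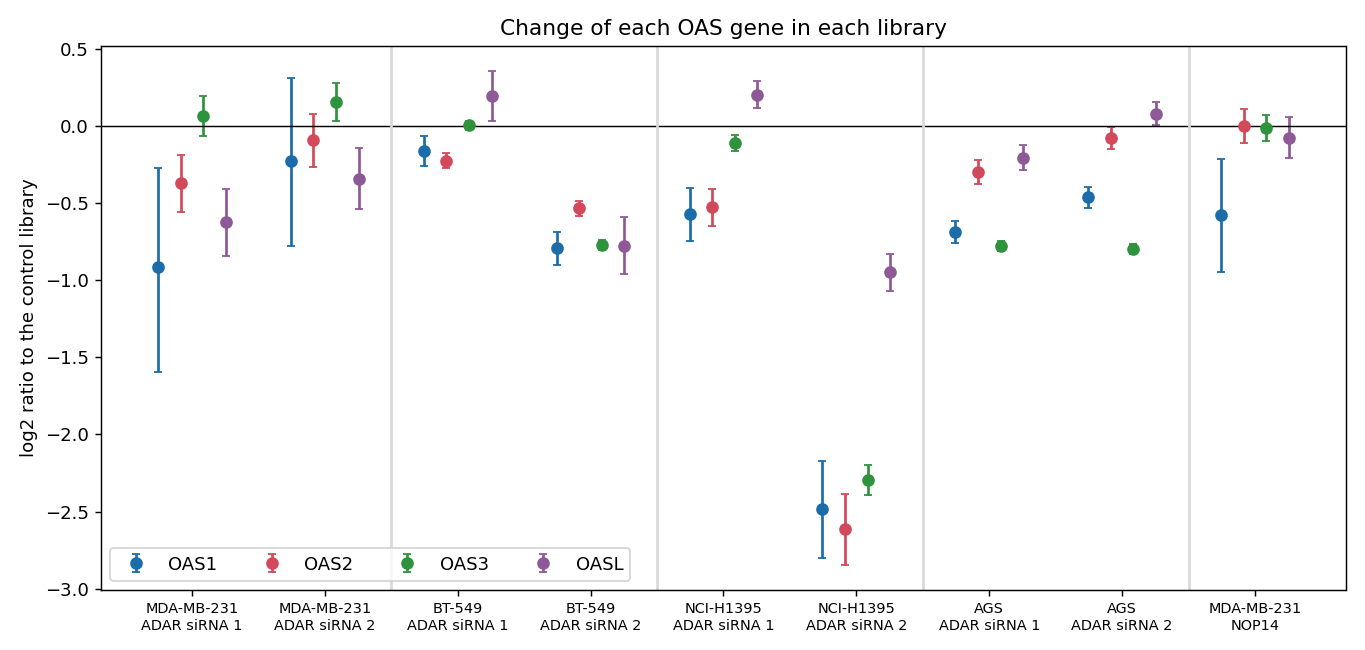
Log2 ratio of each OAS gene to its control library, for the 8 ADAR siRNA libraries and the NOP14 library, with counting intervals of 95%. The OAS1 and OAS2 points of the ADAR siRNA libraries lie below 0 throughout, and those of NCI-H1395 library 2 are near -2.48 and -2.61.

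Within single lines no member was called by edgeR or by DESeq2, and none had an unadjusted edgeR p under 0.05. With a replicate block (the library number as a term), edgeR called OAS1 (adjusted p = 0.00325), OAS2 (adjusted p = 0.00155) and OAS3 (adjusted p = 0.0309) in NCI-H1395. With that block the spread was shared over genes, and a member's own disagreement between libraries did not enter its p. Without the block, edgeR called 0.0751% of 23959 genes in MDA-MB-231 and 0.00417% in each of BT-549, NCI-H1395 and AGS, so few genes of any kind passed there, and ADAR was among them in each line. The standard errors of the members were between 0.46 and 0.89 on the log2 scale. They came from a spread shared by the 4 lines, and leaving out NCI-H1395 library 2 lowered them. OAS3 in AGS, for example, was at -0.79 ± 0.86 with all libraries and at -0.81 ± 0.29 (edgeR adjusted p = 0.656) without that library. OAS1 in AGS was at -0.57 ± 0.68 with all libraries and at -0.59 ± 0.30 (edgeR adjusted p = 0.949) without it. A test of whether the response differed between lines called no member (edgeR adjusted p = 1 for each, with 0.0292% of genes called, no member at an unadjusted p under 0.05, and none with DESeq2). The different signs of OAS3 in MDA-MB-231 and AGS were therefore within the spread of this fit.

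NCI-H1395 library 2 stood apart from the other 7 ADAR siRNA libraries. All 4 members were lower there than in the control, OAS1 at 17.9%, OAS2 at 16.4%, OAS3 at 20.4% and OASL at 51.8%. In NCI-H1395 library 1 OAS1 was at 67.2% of the control, OAS2 at 69.4%, OAS3 at 92.5% and OASL at 115%. Few genes were so low in library 2. Of 21944 genes, 0.237% had a lower ratio than OAS1, 0.15% than OAS2, 0.355% than OAS3 and 6.51% than OASL, while 5.89% were lower by at least 2-fold. ADAR was left at 10.6% of its control in library 1 and 11.9% in library 2, so the libraries had like knockdown. The library's total, 14858945 counts, was within the range of the others. Epithelial markers summed to 671 and 629 CPM with ADAR siRNA 1 and 2 in this line, against 749 CPM with control siRNA. That sum was nearly all keratin, with KRT18 at 583 CPM and KRT8 at 166 CPM in the control. EPCAM was at 0.320 CPM there, KRT19 at 0.267 CPM and CDH1 at 0. Mesenchymal markers summed to 1510 and 2601 CPM with ADAR siRNA 1 and 2, against 2455 CPM with control siRNA. Their part in the result was not tested. Without library 1, the NCI-H1395 contrast called OAS1 (-2.51, edgeR adjusted p = 0.00038), OAS2 (-2.64, edgeR adjusted p = 2.95e-05) and OAS3 (-2.32, edgeR adjusted p = 0.000371). Without library 2, none was called, with OAS1 at -0.58, OAS2 at -0.53, OAS3 at -0.12 and OASL at 0.19 (edgeR adjusted p = 1 for each). In both of these fits 1 library stood for the group. The interaction between lines likewise called OAS2 (edgeR adjusted p = 0.00663) and OAS3 (edgeR adjusted p = 0.0316) without library 1 and no member without library 2.

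The genes nearest to OAS1, OAS2 and OAS3 had too few counts to show whether they shared this drop: RPH3A, 6975 bases away, had at most 2 counts in any library and DTX1, 45007 bases away, at most 13. Within 250 kb of the 4 members lay 35 other genes, 9 of them with a mean of at least 1 CPM. The log2 ratios of those 9 in NCI-H1395 library 2 ran between -0.34 and 0.68. RASAL1, among the 9, was at exactly 0 in both NCI-H1395 ADAR siRNA libraries. Its lowest count in any library was 0, so that value may only reflect a lack of counts. DDX54, 145450 bases from OAS2, was at -0.34. An antisense gene that overlaps OAS1, OAS3 and OAS2 (ENSG00000257452) had 0 counts in all 14 libraries, while whether reads were counted by strand was not given in the sources used here.

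Fitted over all lines, libraries numbered 2 were below those numbered 1 for all 4 members, and OAS3 passed the threshold (-0.70 ± 0.17, edgeR adjusted p = 0.00442), where 1.49% of genes were called. In this fit the SE came from a spread shared over genes. How far the lines disagreed for a given gene did not enter its SE or p, here or for the list genes below. OAS1 was at -0.48 ± 0.19, OAS2 at -0.42 ± 0.17 and OASL at -0.39 ± 0.18, with edgeR adjusted p between 0.284 and 0.436. The direction was not shared by the lines. All 4 members were lower in library 2 in BT-549 and NCI-H1395 and higher in library 2 in MDA-MB-231, and in AGS OAS1, OAS2 and OASL were higher in library 2 and OAS3 was nearly level. The OAS3 call was lost with DESeq2 (adjusted p of 0.532), and with 1 line left out at a time OAS3 was between -0.98 and -0.25 (edgeR adjusted p between 0.328 and 1). Without NCI-H1395 it was at -0.25, and OAS2 was at 0.04. Of 36 other interferon-stimulated genes, 4 were called lower in libraries numbered 2 and 0 higher. They were RSAD2, an antiviral enzyme (-1.06 ± 0.21, edgeR adjusted p = 0.000247), IFIT2, an RNA-binding antiviral protein (-0.76 ± 0.17, edgeR adjusted p = 0.00215), HERC5, the ligase that attaches ISG15 (-0.68 ± 0.19, edgeR adjusted p = 0.0301), and IFIT3 (-0.60 ± 0.17, edgeR adjusted p = 0.0301). DESeq2 called 0 of the 36 here, and so did edgeR without the line NCI-H1395, where RSAD2 was at -0.57, IFIT2 at -0.39, HERC5 at -0.31 and IFIT3 at -0.23. With 1 of the other lines left out, between 1 and 2 of the 36 were called.

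The rest of the interferon response gives the setting for these values. Of 36 other interferon-stimulated genes, 26 were below 0 over the 4 lines and 10 above, with a median log2 fold change of -0.14 against 0.06 for all genes tested. Neither edgeR nor DESeq2 called any of them, and 4 had an unadjusted edgeR p under 0.05. Without NCI-H1395 library 2 the list was split, with 18 below 0 and 18 above, and its median was -0.02 against 0.04 for all genes. ISG15, a ubiquitin-like modifier, was at -0.38 ± 0.13 (edgeR adjusted p = 0.281) and IFIT3, which helps IFIT1 bind foreign RNA, was at -0.37 ± 0.12 (edgeR adjusted p = 0.265). CMPK2, a nucleotide kinase made after interferon, was at -0.75 ± 0.39, below all 4 OAS genes. IFITM1 (-0.58 ± 0.38) and IFITM2 (-0.52 ± 0.25), which hinder virus entry, were below all but OAS1. These 3 were chosen after their values were seen. OAS1 lay within the range of the list only through CMPK2, while OAS2, OAS3 and OASL were above all 3. CMPK2 had at most 4 counts in the MDA-MB-231 siRNA libraries, and IFITM2 at most 1 in BT-549.

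Library by library, the list's median was near 0 in most cases. In MDA-MB-231 it was at -0.09 in library 1 and 0.06 in library 2. BT-549 had -0.05 in library 1 and -0.58 in library 2. NCI-H1395 had -0.01 in library 1 and -1.11 in library 2, and AGS had 0.05 in library 1 and 0.36 in library 2. NCI-H1395 library 2 and BT-549 library 2 were therefore low for the list as a whole, with 33 of 36 and 34 of 36 genes below 0. Even in NCI-H1395 library 2, 7 of the 36 had a lower ratio than OAS1, 6 than OAS2, 7 than OAS3 and 25 than OASL. In AGS library 2 the list parted from OAS1 and OAS3: 26 of 36 genes were above 0, while OAS3 was below each of the 36 and OAS1 was below all but 1. OAS2 was nearly level there, at -0.08, with 5 of the 36 below it.

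**Figure D3:**
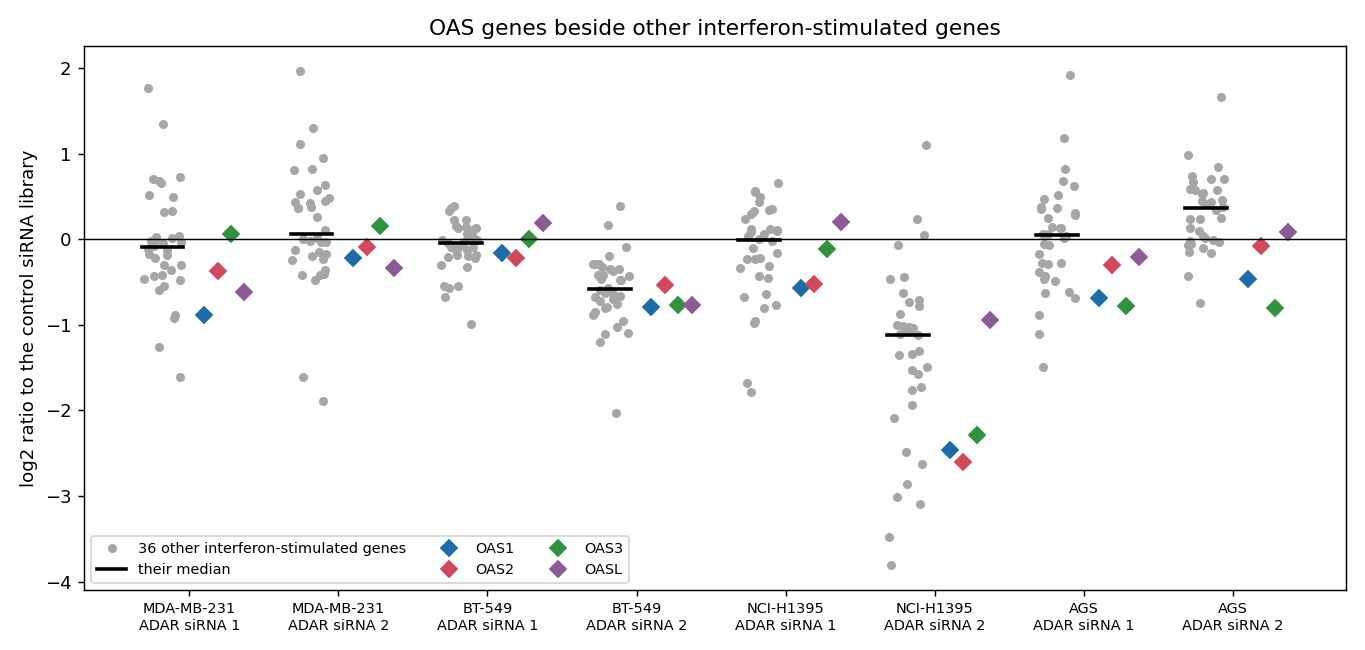
Log2 ratio to the control siRNA library in each ADAR siRNA library, with a prior count of 2, for the 4 OAS genes (diamonds) and 36 other interferon-stimulated genes (grey points, line at the median). In NCI-H1395 library 2 the median of the list is at -1.11, and in AGS library 2 it is at 0.36 with OAS1 and OAS3 below 0.

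The genes that act with the OAS enzymes showed no call over the 4 lines with edgeR or DESeq2. ABCE1, first described as an inhibitor of RNase L, was at -0.18 ± 0.10 (edgeR adjusted p = 0.529). PDE12, a phosphodiesterase that degrades the linked oligoadenylates, was at -0.19 ± 0.11 (edgeR adjusted p = 0.549), and AKAP7, shown in mouse to degrade them too, was at -0.14 ± 0.35 (edgeR adjusted p = 0.926). All 3 were below 0, within 2 standard errors. CGAS, whose product is a DNA sensor related in structure to the OAS enzymes, was at -0.18 ± 0.12 (edgeR adjusted p = 0.604), and STING1, which relays its signal, at -0.29 ± 0.22 (edgeR adjusted p = 0.672). Among 7 tested sensors of double-stranded RNA, 4 were above 0 and 3 below, with a median of 0.04. edgeR called 0 of them, 1 had an unadjusted p under 0.05, and DESeq2 called 1, NLRP1. NLRP1, an inflammasome sensor, was at 0.47 ± 0.12 (edgeR adjusted p = 0.184), and EIF2AK2, the kinase PKR, at -0.17 ± 0.12 (edgeR adjusted p = 0.639). Of 20 genes of interferon induction and signalling, 15 were above 0 and 5 below, with a median of 0.17 against 0.06 for all genes. The 4 farthest above 0 were the interferons IFNL1, IFNE, IFNL3 and IFNB1, which had 0 counts in some libraries. Neither edgeR nor DESeq2 called any of the 20, and 2 had an unadjusted edgeR p under 0.05. The 2 with the smallest p were IFNL1, an interferon of the lambda type (1.22 ± 0.51, edgeR adjusted p = 0.369), and JAK1, a kinase of the interferon receptors (0.25 ± 0.11, edgeR adjusted p = 0.397).

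**Figure D4:**
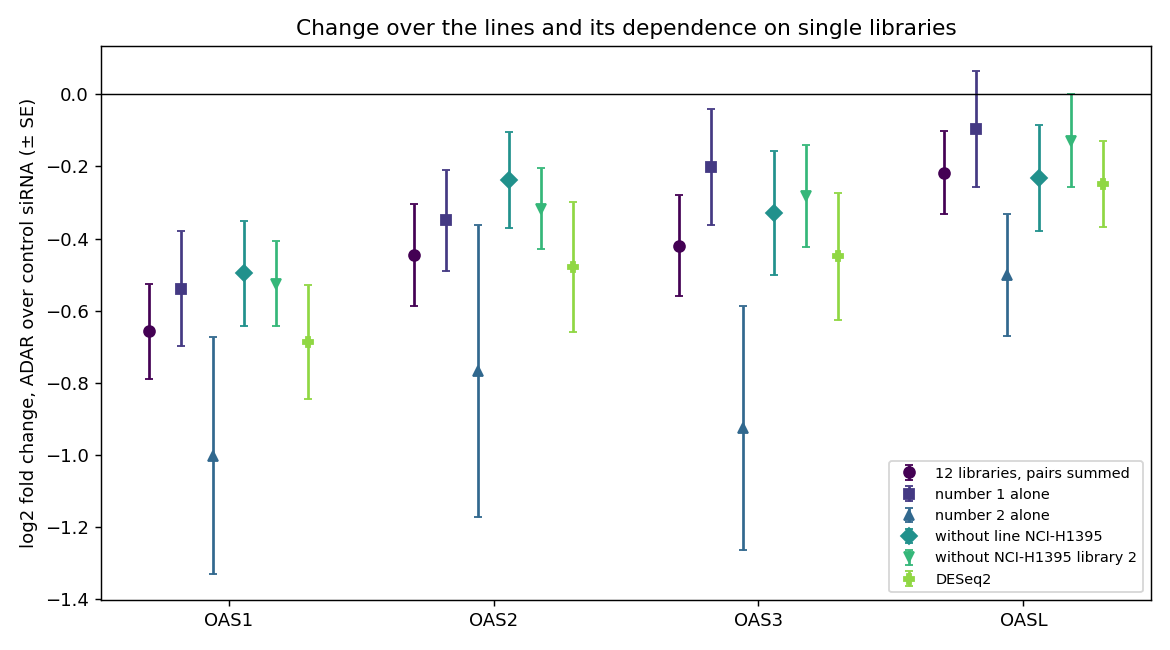
Log2 fold change of each OAS gene, ADAR siRNA over control siRNA across the lines, with its standard error, for all 12 siRNA libraries, for libraries of 1 number alone, without NCI-H1395 or its library 2, and with DESeq2. Every estimate is below 0, from -0.10 for OASL with libraries numbered 1 to -1.001 for OAS1 with libraries numbered 2.

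Across the 14 libraries the members did not all follow the same pattern. Pearson's r of log2 CPM was 0.975 between OAS1 and OAS3, 0.909 between OAS2 and OAS3 and 0.838 between OAS1 and OAS2, while with OASL it was 0.635 for OAS1, 0.510 for OAS3 and 0.201 for OAS2. These values mostly describe differences between 4 lines, which share libraries and culture, and carry no test. Among 15280 other genes with a mean of at least 1 CPM, those closest to OAS1 included PARP9 (0.977), RSAD2 (0.971), IQCB1 (0.971) and PLSCR1 (0.969). RSAD2 is the antiviral enzyme viperin. OAS2 was closest to IFI44L (0.960), XAF1 (0.948), RFC3 (0.945), SLC18B1 (0.943) and PASK (0.942). Those closest to OAS3 included ENSG00000225886 (0.985), an antisense gene that overlaps the interferon-stimulated gene IFI6 and whose reads cannot be told apart from it without strand, PARP9 (0.972), PARP12 (0.962) and DTX3L (0.958). OASL was closest to PLAGL2 (0.955), ZXDC (0.954), PGAP2 (0.952), TMEM59L (0.951) and TMEM62 (0.947), none of them in the list of interferon-stimulated genes used here.

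NOP14 takes part in assembling the small subunit of the ribosome. Its overexpression in MDA-MB-231 gave 1 library, set against 1 PCDH library, so these ratios have no test. OAS1 was at 4.52 CPM in the NOP14 library and 6.75 CPM in the PCDH library (102 counts in the NOP14 library and 174 in the PCDH library), a ratio of 0.670 with a counting interval of 0.519 to 0.860. Of 13864 genes with a mean of at least 1 CPM, 1.17% were lower by 1.5-fold or more, and OAS1 lay just short of that. The others were nearly level. OAS2 was at 53.3 CPM in the NOP14 library and 53.4 CPM in the PCDH library, and OAS3 at 92.0 CPM in the NOP14 library and 93.0 CPM in the PCDH library. OASL was at 38.3 CPM in the NOP14 library and 40.4 CPM in the PCDH library. Their counting intervals all included 1, and 48.9% of genes were lower to any extent. In the same cells, the control siRNA library was lower than the PCDH library for each member, at 0.547-fold for OAS1, 0.622-fold for OAS2, 0.629-fold for OAS3 and 0.677-fold for OASL. The share of all genes that were lower between this pair of libraries was not counted.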

How the data were processed

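Poly(A) RNA from 4 human cancer cell lines was sequenced in 14 libraries. The authors deposited whole-number counts per gene. The submitters' processing notes name the build hg38 and the tools fastp 0.23.4, featureCounts 2.0.6 and STAR 2.7.11a. Whether counting used strand was not given in the sources used here. Of the table, 3 broken lines were not used. Groups came from the labels. The members and gene lists were chosen with earlier results of these data known. The text names the 4 members, ADAR, NOP14, called list genes (otherwise the smallest p) and, per member, the 5 genes with the highest correlation, except genes that are not reported here; genes outside this rule are said to be so or serve as context.

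Genes kept by filterByExpr (21944 over the lines, 23959 within lines) were tested in R 4.3.3 with edgeR 4.0.16 (TMM scaling, robust quasi-likelihood fits, Benjamini-Hochberg adjustment over all genes, threshold 0.05). Over the lines, the ADAR siRNA pair of each line was summed, and line and treatment were fitted. Within lines, 8 groups were fitted to the 12 siRNA libraries, with 4 residual degrees of freedom, and the lone control was assumed to vary like the pairs. Alternatives were DESeq2 1.42.0, other scaling and filters, a term for the library number, and leaving out lines or libraries. CPM per kilobase used exon length from the deposited coordinates. Intervals cover 95% and counting error only, since reads had no molecular identifiers. Libraries with the same number in different lines deviated together weakly (correlation between -0.06 and 0.219 over genes), so the numbers were not taken to pair the samples. NOP14 has 1 library per arm and no test.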

Additional observations from a re-analysis of the deposited data

How the results depend on the processing

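Over the 4 lines, all 21 alternatives left each member below 0, with OAS1 between -1.001 and -0.50, OAS2 between -0.77 and -0.24, OAS3 between -0.92 and -0.20 and OASL between -0.50 and -0.10. The alternatives reused the same siRNA libraries or a part of them, so they do not repeat the result independently. The share of all genes that kept their sign over these alternatives was not counted. The adjusted p of OAS1 ran between 0.00309 and 0.445 over these. OAS1 passed with DESeq2 (-0.69) and with no count filter (-0.60, adjusted p = 0.00444); the cause was not tested. The number of genes called over the lines, 4, was 484 with DESeq2, 394 with no filter, 0 with at least 10 counts in 4 columns, 1 with unsummed libraries, 2 with a replicate block (the library number as a term), 14 with libraries numbered 1, 0 with those numbered 2, and between 0 and 75 with a line or library left out.

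Within lines and between lines, counts of called genes also moved. With no filter they were 107 in MDA-MB-231, 27 in BT-549, 72 in NCI-H1395, 33 in AGS and 126 for the difference between lines. With DESeq2 they were 46 in MDA-MB-231, 2 in BT-549, 43 in NCI-H1395, 10 in AGS and 37 for the difference between lines. The stricter filter gave 10 in MDA-MB-231, median-ratio scaling 2 in AGS, and library totals 3 for the difference between lines. With a replicate block they were 187 in MDA-MB-231, 42 in BT-549, 149 in NCI-H1395, 65 in AGS and 210 for the difference between lines. In NCI-H1395 the block also called OAS1 (-1.33, edgeR adjusted p = 0.00325), OAS2 (-1.33, edgeR adjusted p = 0.00155) and OAS3 (-1.02, edgeR adjusted p = 0.0309), and it changed no other call of a member. The spread of the block fit was shared over genes, without the gene's own spread.

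Leaving out a library gave between 2 and 59 called genes in MDA-MB-231, 1 and 32 in BT-549, 38 and 39 in NCI-H1395, 1 and 8 in AGS, and 37 and 38 for the difference between lines. In NCI-H1395 OAS1 was then between -2.51 and -0.58, OAS2 between -2.64 and -0.53, OAS3 between -2.32 and -0.12 and OASL between -0.98 and 0.19. In BT-549 OAS3 was between -0.77 and 0.00721 and OASL between -0.78 and 0.20. In AGS OASL was between -0.21 and 0.0794, and at 0.0357 with library totals. The adjusted p for a difference between lines was between 0.00663 and 1 for OAS2 and between 0.0316 and 1 for OAS3.

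Between control libraries, OAS2 in MDA-MB-231 against BT-549 (-3.34, edgeR adjusted p = 0.0508) and OAS3 in MDA-MB-231 against AGS (-4.26, edgeR adjusted p = 0.0515) were no longer called with median-ratio scaling. With library totals OAS1 was called in MDA-MB-231 against NCI-H1395 (-3.27) and NCI-H1395 against AGS (-2.73), and OASL in BT-549 against NCI-H1395 (-1.77). DESeq2 called OAS3 in MDA-MB-231 against BT-549 (-3.85), OAS1 in MDA-MB-231 against NCI-H1395 (-3.07), OAS2 in MDA-MB-231 against AGS (-2.35), OAS1 (1.54), OAS2 (2.46) and OASL (-1.60) in BT-549 against NCI-H1395, and OAS1 (-2.89) and OAS2 (-1.47) in NCI-H1395 against AGS. Without NCI-H1395 library 2, OAS3 was at -3.95 in MDA-MB-231 against BT-549, and OAS2 at -2.43 in MDA-MB-231 against AGS. In MDA-MB-231 against NCI-H1395, OAS1 was at -3.17, OAS2 at -0.98 and OAS3 at -2.34. In BT-549 against NCI-H1395, OAS1 was at 1.54, OAS2 at 2.46, OAS3 at 1.61 and OASL at -1.60. In BT-549 against AGS, OAS1 was at -1.33 and OAS2 at 1.01. In NCI-H1395 against AGS, OAS1 was at -2.87, OAS2 at -1.45 and OAS3 at -2.003.

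For library 2 against library 1, OAS3 was at -0.73 with DESeq2, which called 53 genes. With 1 line left out OAS3 was between -0.98 and -0.25, OAS2 between -0.67 and 0.0434, and between 43 and 302 genes were called. Of 380 member values under these runs, 332 were labelled the same. Another 35 passed the threshold only in the alternative run, 7 only in the main run, and 6 were labelled reversed. The same meant an unchanged sign and side of the threshold for fold changes, and the side alone for differences between lines. For NOP14 it meant a ratio within the counting interval of the main run. Many main values lay far from the threshold, so an unchanged side says little there. Depth was lowest for OAS1 in MDA-MB-231, at 29 to 69 counts in the siRNA libraries.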

Other observations

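The interferon ligands listed here had at most 190 counts in any library, and the counts below were picked after their values were seen. IFNE had 150 and 152 counts with ADAR siRNA 1 and 2 in BT-549, against 135 with control siRNA. In NCI-H1395 IFNE had 21 and 72 counts with ADAR siRNA 1 and 2, against 4 with control siRNA, so it was highest in library 2. IFNB1, the beta interferon, had 30 and 5 counts with ADAR siRNA 1 and 2 in NCI-H1395, against 4 with control siRNA. In AGS it had 47 and 50 counts with ADAR siRNA 1 and 2, against 19 with control siRNA, in libraries where OAS1 and OAS3 were below their control. In BT-549 it had 4 and 7 counts with ADAR siRNA 1 and 2, against 12 with control siRNA, and in MDA-MB-231 it had 0 counts in every library. IFNL1 had 26 and 0 counts with ADAR siRNA 1 and 2 in NCI-H1395, against 2 with control siRNA, and 93 and 190 counts with ADAR siRNA 1 and 2 in AGS, against 87 with control siRNA. In NCI-H1395 library 1, where IFNB1 and IFNL1 were highest for that line, IRF7, which drives interferon genes, was at 208% of the control level. ISG15 was at 148% there and IFIT2 at 147%, with OAS1 at 67.2%, OAS2 at 69.4%, OAS3 at 92.5% and OASL at 115%. The 36 other interferon-stimulated genes were split in that library, with 18 below 0 and 17 above on the log2 scale. Their median was -0.01, and the lowest, GBP1, was at -1.79. In NCI-H1395 library 2 IRF7 was at 89.5%, ISG15 at 46.1% and IFIT2 at 39.2%.

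The genes that were lower than all 4 OAS genes in NCI-H1395 library 2 included IFI44L, at 7.84% of its control, XAF1 at 9.87%, IFITM1 at 11.1% and RSAD2 at 12.7%. DDX60 was at 118% there. None of these single-library ratios has a test.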
